A study of Mus musculus with 43 samples.

Results

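The 2 wild-type courses of a mouse reprogramming study were compared: for each gene, the change from the starting fibroblasts in the system labelled WT-1 was set against the change in WT-2 on days 2, 4, 6 and 8. The comparison takes 10 of the series' 43 libraries, 5 from each system: the mouse embryonic fibroblasts (MEF) and Day2, Day4, Day6 and Day8, with 1 library at each stage. The quantity reported is (day minus MEF) in WT-1 minus (day minus MEF) in WT-2, on the scale log2(FPKM + 1), where FPKM is the fragment count scaled to transcript length and to the mapped fragments of the library. A positive value means that the gene went up more, or down less, in WT-1. The MEF of both systems were secondary fibroblasts that carry a doxycycline-inducible cassette of Oct4 (gene symbol Pou5f1), Klf4, Sox2 and Myc, and the MEF libraries are the uninduced cells. Doxycycline was given to both in serum medium with LIF at 5% oxygen. From day 3.5, per the series' design text, the medium held serum replacement, LIF and the 2i inhibitors, which block MEK and GSK3, whereas the growth protocol puts the inhibitors at 48 hours. Libraries of day 3 and later came from cells on irradiated human foreskin fibroblasts, so day, medium and feeder layer cannot be told apart. WT-2 is described as isogenic to the Gatad2a-/- line; no parent line is stated for WT-1. Each system is 1 course in its own deposited table, so system, course, table and any batch cannot be told apart, and the p-values below compare these courses and not genotypes or repeated inductions.

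Reprogramming with these 4 factors replaces the fibroblast programme stepwise. Matrix and contractile genes are shut down, epithelial adhesion genes such as Cdh1 come on, and the endogenous pluripotency network follows last. Sterol synthesis genes are driven by SREBP2 when cells lack cholesterol, which serum normally supplies, and glycolytic and hypoxia-response genes are driven by HIF1 when oxygen is low. Both sets therefore read out culture conditions as well as cell identity.

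The induced factors were examined first, as a check of the labels. Pou5f1, which encodes Oct4, had 1.79 FPKM in WT-1 MEF and 2.45, 79.1, 56.9 and 171 on Day2, Day4, Day6 and Day8. In WT-2 it was listed at 0 in MEF, Day2 and Day4, and had 0.0920 FPKM on Day6 and 0.832 on Day8. Every WT-1 library from Day4 on thus lay above every WT-2 library, while the library labelled WT-1 Day2 was close to its MEF. The Mbd3f/- and Gatad2a-/- libraries had 6.45 and 8.39 FPKM of Pou5f1 already on Day2, and 304 and 139 on Day4. Myc went from 17.2 and 18.9 FPKM in WT-1 MEF and Day2 to 129, 130 and 116, but from 19.6 and 24.9 in WT-2 MEF and Day2 to 6.15, 6.47 and 6.17. Sox2 reached 6.93 FPKM in WT-1 on Day4 and stayed at or below 0.429 in all 5 WT-2 libraries. Klf4 lay between 8.05 and 20.4 FPKM in WT-1 and between 8.58 and 23.9 in WT-2, with overlap. These values hold the endogenous genes together with whatever part of the cassette the authors' gene models count, and how much that is was not analysed here. The induction that the labels state for WT-2 on Day2 to Day8 and for WT-1 on Day2 is therefore not visible in Pou5f1 or Sox2, and directions drawn from those libraries are of libraries labelled so. WT-2 IPS, the established line, had 1648 FPKM of Pou5f1. Sex-linked genes also differed between libraries. Xist, the RNA that coats the inactive X, had 3.77 to 5.33 FPKM in WT-2 and at most 0.00904 in WT-1. Eif2s3y, a Y-linked gene, had 2.39 and 2.64 FPKM in WT-1 MEF and Day2 and 15.8, 18.7 and 13.0 on the later days, against 4.50 to 7.13 in WT-2 and 0.111 in WT-2 IPS. Other Y-linked genes went the other way in WT-1. Ddx3y had 6.75 and 6.85 FPKM in WT-1 MEF and Day2 and 3.09, 2.75 and 2.56 on the later days. Uty had 5.76 and 5.14 and then 4.52, 3.54 and 2.15. The Y-linked genes thus did not move alike, and their part in the WT-1 step after Day2 reported below was not tested.

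The starting cells also differed. Of the 16 macrophage and blood markers, 15 were in the tables, and all 15 had at least 1 FPKM in each WT-2 library; their summed level was 5422 to 9951 FPKM. In WT-1 the sum was 13.2 to 60.0 FPKM with 3 to 6 markers at 1 FPKM or more. The complement gene C1qa had 1408 FPKM in WT-2 MEF and 259 on Day8, against at most 1.08 in WT-1, and the macrophage receptor gene Csf1r had 55.9 to 102 FPKM in WT-2 and at most 0.333 in WT-1. In bulk libraries, fewer cells of a type and less RNA per cell cannot be told apart. Genes with at least 1 FPKM numbered 12546 to 13052 in WT-1 and 13450 to 13977 in WT-2. The depth of the libraries is unknown. The systems were deposited in separate tables, so levels set side by side across systems also carry any difference in how the tables were normalized; changes from MEF are taken within a table.

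WT-1 stood closer to its MEF than WT-2 on Day2, and further away from Day4 on. Among the 15093 genes tested, 233 in WT-1 and 591 in WT-2 lay at least 1 log2 unit from MEF on Day2. The counts were 2421 and 1524 on Day4, 2372 and 1797 on Day6, and 3220 and 2333 on Day8. The mean difference over the 4 days was 500.2 genes (SD 591.4, n = 4 days), with WT-1 ahead on 3 of 4 days, and the exact two-sided sign-flip permutation test gave p = 0.25, and the smallest p that 4 days allow rounds to 0.13. The excess was on the higher side: genes above MEF were 628.2 more in WT-1 on average (SD 443.9, n = 4 days, exact p = 0.25), and for genes below MEF the mean difference was -128 (SD 166.4, n = 4 days, exact p = 0.25). After quantile normalization of the 10 libraries the mean difference in the total count was 151.2 genes (exact p = 0.625). For genes above MEF it was 131 in place of 628.2 (exact p = 0.25). The size of the excess, in total and on the higher side, thus depended on how the libraries were scaled.

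**Figure D1:**
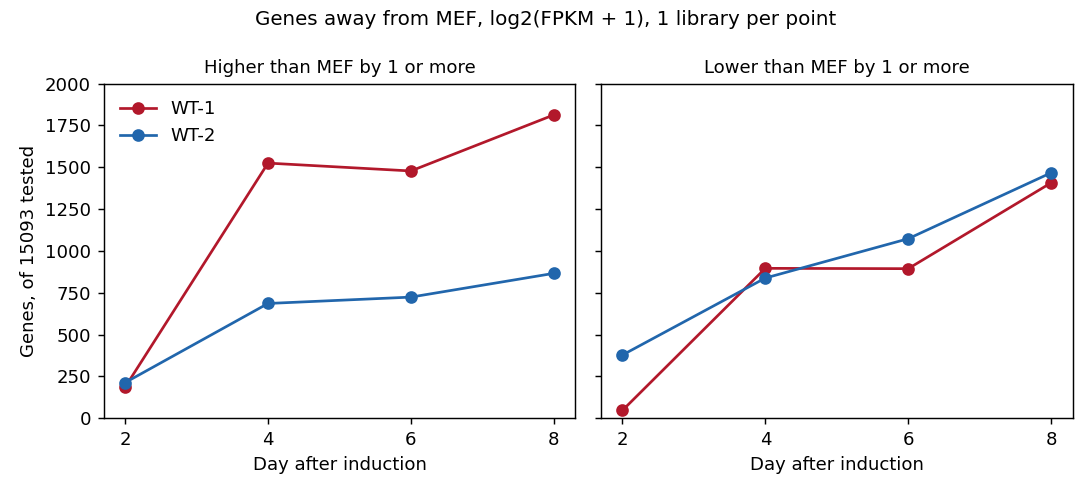
Number of genes, of 15093 tested, at least 1 log2(FPKM + 1) unit above (left) or below (right) the MEF of the same system, by day after induction; each point is 1 library. WT-1 goes from 186 higher genes on Day2 to 1525 on Day4, while WT-2 goes from 213 to 686.

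The timing of change differed as well. In WT-1, 2507 genes moved by at least 1 log2 unit between Day2 and Day4, against 233 from MEF to Day2, 426 from Day4 to Day6 and 400 from Day6 to Day8. In WT-2, 958 genes moved between Day2 and Day4, against 591 from MEF to Day2, 997 from Day4 to Day6 and 468 from Day6 to Day8, and its largest step was smaller than the WT-1 step after Day2. Across genes, which are not independent replicates, the changes from MEF in both systems had Pearson's r of -0.09 on Day2 and 0.208, 0.213 and 0.272 on Day4, Day6 and Day8. On Day8, 266 genes were at least 1 higher than MEF in both courses and 319 at least 1 lower in both, whereas 108 were higher in WT-1 and lower in WT-2 and 46 the reverse.

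No gene passed the threshold when all 4 days were used. With limma on the 10 libraries, 0 of 15093 genes (0%) had a Benjamini-Hochberg adjusted p under 0.05, and the smallest was 0.480. The fit counts an error for the MEF libraries, but takes its size from the scatter of the induced days, since each system has 1 MEF library. The fits without Day2 and from Day2 below do the same for their starting libraries. At an unadjusted p under 0.05 there were 864 genes (5.72%), 562 higher (3.72%) and 302 lower (2%) in WT-1. Of all 15093 genes, 8768 had a positive difference and 6325 a negative one, which is the background for the sign counts of lists below. The median difference over all genes was 0.11. Centring each library on its median moved that median to -0.05 and quantile normalization to -0.04, a shift that bears on every difference below. The 4 days did not act alike: the sign of the difference on Day2 was opposite to that of the later mean for 6308 of 15093 genes. It was the same on all 4 days for 6563. Leaving out Day2, limma called 532 genes (3.52%), 339 higher (2.25%) and 193 lower (1.28%). Leaving out Day4, Day6 or Day8 in its place gave 0 calls each, so among these 4 fits only the one without Day2 made calls. With quantile normalization the split of the calls without Day2 was 146 higher and 165 lower, and with median centring 223 higher and 280 lower, so the majority on the higher side depended on the scaling. A comparison without any MEF library, Day4 to Day8 against Day2, called 203 genes (1.34%), 146 higher (0.967%) and 57 lower (0.378%), of which 172 were also called without Day2.

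For the genes called without Day2, the difference between systems often lay in the MEF. The level gaps between systems in MEF and in the mean of Day2 to Day8, Day2 included, were each centred on their median over all genes. The gap was larger in MEF than in that mean for 66.1% of the 339 higher genes and 68.4% of the 193 lower genes, against 54.2% of all genes tested. Centred in the same way, 61.4% of the higher genes were at least 1 log2 unit lower in WT-1 MEF than in WT-2 MEF (18.7% of all genes). Of the lower genes, 65.3% were at least 1 higher in WT-1 MEF (9.75% of all). A gap between MEF enters every daily difference, so these shares are a description. The Mbd3f/- and Gatad2a-/- courses, whose libraries were not used for the calls, gave a second view. Of the 193 lower genes, 68.4% were at least 1 below MEF on Day8 of Mbd3f/- and 75.1% on Day8 of Gatad2a-/-, against 21.9% and 19% of all genes. A gene under 1 FPKM in MEF cannot fall by 1 on this scale, and the sets were not matched for their level in MEF. Of the 339 higher genes, 28.6% and 35.4% were at least 1 above MEF, against 19.5% and 18% of all genes, but 31.9% and 19.5% were at least 1 below (21.9% and 19% of all). In Mbd3f/- more of them were thus below MEF than above it, with a median change of -0.09, and in Gatad2a-/- the median was 0.41.

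The named genes are the 12 largest differences in each direction with the same sign on all 4 days, at least 5 FPKM in some library and an unadjusted p under 0.05, since none passed the adjusted threshold (limma adjusted p from 0.480 to 0.763); 22 of them are given here. Apod, which encodes the lipid carrier apolipoprotein D (chr16:31296192-31314808, GRCm38, minus strand), led the higher side. Its level was 1.91 and 1.16 FPKM in WT-1 MEF and Day2 and then 353, 577 and 1205, against 275, 56.4, 25.0, 175 and 146 in WT-2. WT-1 lay below WT-2 in MEF and Day2 and above it from Day4 on, and the difference in change was 7.52 ± 3.05 (SE). Without Day2 it was 9.41 ± 0.78 (limma adjusted p = 0.0163). The established lines had 3.85 FPKM in WT-1 IPS and 4.49 in WT-2 IPS, below every day from Day4 on in either course.

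Crym, which encodes a thyroid hormone binding protein, had 0.370, 0.846, 27.5, 32.7 and 54.7 FPKM in WT-1 in the order MEF to Day8 and 3.01, 0.850, 0.451, 0.454 and 0.252 in WT-2. The series separate completely from Day4 on, with a difference in change of 5.13 ± 1.93. Col15a1, a basement membrane collagen gene, had 0.734, 1.70, 46.1, 51.1 and 52.3 FPKM in WT-1 and stayed between 4.62 and 7.90 in WT-2. Scara5, a ferritin receptor gene, followed the same shape, with 0.507 and 1.63 and then 31.2 to 33.1 FPKM in WT-1, against 8.22 to 18.4 in WT-2. For these 3 genes the change from Day2, which uses no MEF library, was also called (limma adjusted p = 0.0332 for Crym, 0.0200 for Col15a1 and 0.0283 for Scara5). WT-1 Day2 was itself close to its MEF, so it is a similar starting point. In WT-2, Crym had at least 1 FPKM only in MEF. It could thus pass the filter on low values through WT-1 alone, and its p-value is a description.

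In 3 of the other leading genes the difference came from a change in WT-2 alone, and in the rest from WT-1 or from both. Ms4a4c, of a family of membrane proteins of blood cells, was listed at 0 in all 5 WT-1 libraries and had 208, 20.9, 2.14, 2.96 and 1.66 FPKM in WT-2. Slfn4 and Slamf9, which are expressed in myeloid cells, had 29.1 and 48.0 FPKM in WT-2 MEF and 0.0428 and 0.134 on Day8, with at most 0.157 in WT-1. In Fgl2, which encodes a secreted immune regulator, both courses took part: it went from 59.8 to 3.30 FPKM in WT-2 and from 0.127 to 7.36 in WT-1. The summed macrophage marker level was 8796 FPKM in WT-2 MEF and 5889.6 on Day8, and the 15 markers tested had a median change of -1.64 on Day8 there. The part of those cells in these 4 results was not tested. In Zbp1, Clu and adapt33_3 the larger part was in WT-1, with mean changes from MEF of 2.93, 4.17 and 4.12 there and -1.21, -0.08 and -0.05 in WT-2. Zbp1, an interferon-induced nucleic acid sensor, had 156, 63.4, 38.3, 114 and 72.1 FPKM in WT-2 and 0.193, 0.164, 14.3, 13.1 and 25.9 in WT-1. Clu, which encodes the chaperone clusterin, had 3.11 and 10.6 and then 68.5, 208 and 178 FPKM in WT-1, and 151 to 276 in WT-2. The 12 are completed by Egln3, described with the hypoxia genes, and the non-coding entry adapt33_3, whose levels of 0.0000593 to 29.1 FPKM in WT-1 rest on a near-zero estimate in MEF.

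**Figure D2:**
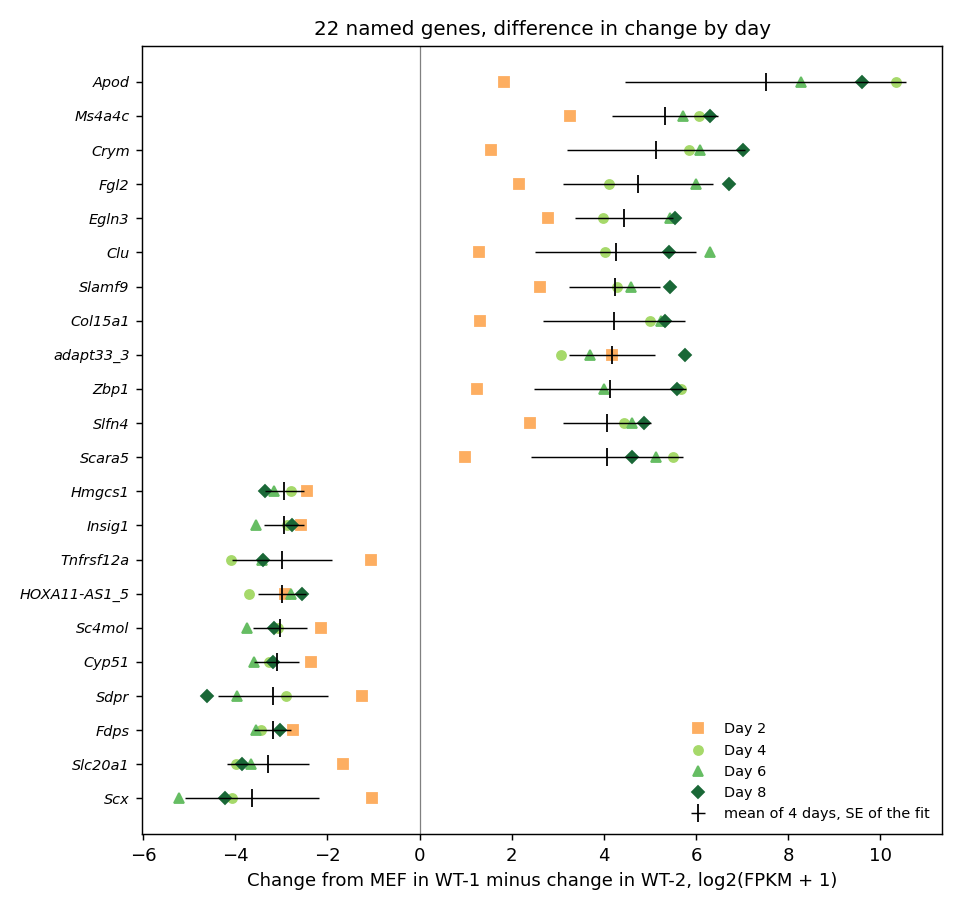
Difference in change from MEF, WT-1 minus WT-2, on each of the 4 days (symbols) for 22 of the named genes, on the log2(FPKM + 1) scale; the black bar is the mean of the 4 days with the SE of the limma fit. Day2 lies nearest to 0 for most genes, by a wide gap for Apod (1.84 against 9.61 on Day8) and by a narrower one for Hmgcs1 (-2.44 against -3.36), but not for adapt33_3 and HOXA11-AS1_5.

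On the lower side, Scx, the tendon transcription factor scleraxis, had 28.6, 18.4, 0.707, 1.18 and 1.88 FPKM in WT-1 and 6.08, 8.42, 5.85, 18.5 and 11.8 in WT-2. The order of the systems turned around between MEF and Day8. Tnfrsf12a, which encodes the TWEAK receptor, had 167 and 149 and then 8.43, 25.6 and 27.5 FPKM in WT-1, against 47.0 to 91.6 in WT-2. Slc20a1, a phosphate transporter gene, had 197, 67.7, 26.3, 22.3 and 21.5 FPKM in WT-1 and 12.1 to 27.6 in WT-2, and Sdpr, a caveola component, had 187 to 21.4 against 6.45 to 20.9. The differences of these 4 genes were -3.63 ± 1.45, -2.99 ± 1.08, -3.29 ± 0.90 and -3.19 ± 1.19 in that order. The non-coding entry HOXA11-AS1_5 was listed at 0 throughout WT-1 and in WT-2 MEF and had 4.85 to 12.1 FPKM on the days of WT-2. The other 5 given on the lower side were sterol genes.

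Of the lists, the cholesterol genes had the largest share of members at an unadjusted p under 0.05. Of the 20 genes of the list, 18 were in the tables under those symbols and were tested; all 18 had a lower change in WT-1, 16 at an unadjusted p under 0.05 (2% of all genes in that direction), and 15 were called without Day2 (1.28% of all genes). Hmgcs1, which makes the precursor of mevalonate (chr13:119690379-119708260, GRCm38, plus strand), had 109 FPKM in WT-1 MEF and 39.7, 51.8, 48.4 and 36.8 on the 4 days. In WT-2 it had 10.5 FPKM in MEF and 22.1, 37.3, 44.9 and 39.5. The MEF were far apart and the libraries from Day4 on met between 36.8 and 51.8 FPKM, with a difference in change of -2.93 ± 0.42 and an unadjusted limma p of 0.000374. Cyp51, the lanosterol demethylase, had 52.3 FPKM in WT-1 MEF and 22.0 to 26.0 later, against 4.50 and 11.3 to 29.8 in WT-2. Fdps, Insig1, Sc4mol (a sterol methyl oxidase gene, listed under this older symbol), Sqle and Idi1 followed the same course, with differences between -3.19 and -2.64.

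The group's median difference was -2.07, against 0.11 for all genes. Its median level was 2.81 log2 units higher in WT-1 MEF than in WT-2 MEF, and measured from Day2 the median difference was only -0.36, with 0 of 18 called by limma. The gap thus lay in the MEF libraries: the summed level of the list was 623 FPKM in WT-1 MEF and 89.2 in WT-2 MEF, but 365 and 309 on Day8. Promoters of the list were read because its members moved together. Of the 20 genes, 12 had a RefSeq window (GRCm38.p6, 250 bases before to 50 after the start), and CCAAT, the box bound by NF-Y, was found on either strand in at least 1 window of all 12, against 37.4% of 32851 windows. GGGCGG, the GC box, was also in all 12 (35.7% of windows). A match is a description and not a site. The 250 bases before the start of 2 genes from the lower side are shown to place these boxes, with CCAAT or its reverse complement ATTGG in capitals.
Hmgcs1, chr13:119690101-119690350, plus strand: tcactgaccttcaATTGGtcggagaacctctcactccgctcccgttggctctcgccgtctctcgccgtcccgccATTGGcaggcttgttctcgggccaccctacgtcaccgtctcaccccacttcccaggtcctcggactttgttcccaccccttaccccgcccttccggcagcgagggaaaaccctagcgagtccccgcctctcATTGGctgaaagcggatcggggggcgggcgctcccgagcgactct
Cyp51, chr5:4104698-4104947, minus strand: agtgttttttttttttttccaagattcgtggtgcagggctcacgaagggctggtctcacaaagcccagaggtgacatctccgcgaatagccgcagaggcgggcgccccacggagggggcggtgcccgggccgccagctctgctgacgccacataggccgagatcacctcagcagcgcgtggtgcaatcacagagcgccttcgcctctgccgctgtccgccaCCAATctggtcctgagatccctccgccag
Hmgcs1 holds 3 copies and Cyp51 holds 1 in the bases shown. The other motifs searched on both strands were TATAAA (13.6% of windows), CACGTG (7.15%), TGACTCA (5.2%) and ACGTG (19.6%), which CACGTG contains. Of the leading named genes with a window, Apod and Ms4a4c held 0 of the 6 motifs, Cyp51 held CCAAT and GGGCGG, and 1 of the 2 windows of Slc20a1 held all but TGACTCA.

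Hypoxia-response and glycolysis genes lay below MEF on Day6 and Day8 in both courses, and further below in WT-2. The hypoxia list had 20 of 20 genes tested, 18 with a higher difference and 9 at an unadjusted p under 0.05 (3.72% of all genes in that direction), with a median of 1.10. Egln3, a prolyl hydroxylase that acts on HIF1 (chr12:54178981-54203860, GRCm38, minus strand), had 3.11, 12.8, 53.3, 8.38 and 7.88 FPKM in WT-1 and 39.2, 18.6, 32.6, 1.14 and 0.851 in WT-2. The difference was 4.44 ± 1.06, positive on every day. Car9, a carbonic anhydrase gene and common hypoxia marker, had 2.65, 14.6, 15.1, 0.349 and 0.351 FPKM in WT-1 and 196, 125, 142, 1.90 and 1.54 in WT-2. Car9 was thus far lower on Day6 and Day8 than on Day4 in both systems. From MEF to Day2 it rose in WT-1 and fell in WT-2, and WT-2 lay above WT-1 at every stage. Ankrd37 had a difference of 3.48 ± 0.44, and Angptl4, which encodes a secreted lipase inhibitor, went against the list's late decline in both courses, with 143 FPKM on Day8 in WT-1 and 428 in WT-2. From Day2 the list's median was -0.12 with 0 of 20 called, so this group's difference, like that of the sterol genes, rested on the MEF and on the first interval.

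In glycolysis, 21 of 22 genes had a higher difference, 5 at an unadjusted p under 0.05 (3.72% of all genes in that direction), with a median of 0.92. Measured from Day2, the median was 0.41 (all genes 0.27), with 0 of 22 called. The median change from MEF on Day6 and Day8 was -0.42 and -0.50 in WT-1 but -1.95 and -2.09 in WT-2. Ldha, the lactate dehydrogenase gene, had 548, 868, 919.6, 336 and 365 FPKM in WT-1 and 709, 728, 865, 177 and 173 in WT-2. Slc16a3, which exports lactate, went from 92.4 to 4.98 FPKM between Day4 and Day6 in WT-1 and from 299 to 12.2 in WT-2. The drop between Day4 and Day6 was thus shared, and it fell in the interval after the labelled change of medium; its cause was not tested. Pfkfb3, which raises the rate of glycolysis, was the 1 member called without Day2 (2.65 ± 0.39, limma adjusted p = 0.0383). Aldoc ran the other way in WT-1, from 1.73 and 1.96 to 35.0, 45.9 and 45.2 FPKM, against 12.6 to 1.89 in WT-2. ACGTG, the core of the HIF-bound element, was found in at least 1 window of 11 of the 14 hypoxia genes that had a promoter window and of 14 of 21 glycolysis genes. It was in 19.6% of all windows, but a gene can have several windows, so these shares are not in the same unit. Counted by gene, it was in 9 of 25 ribosome biogenesis genes and 1 of 9 smooth muscle and TGF-beta genes. GGGCGG was in 13 of 14 and 17 of 21, against 12 of 12 in the sterol list. A pair of these promoters is shown for the genes with the largest differences of the hypoxia list, with ACGTG or its reverse complement CACGT in capitals.
Egln3, chr12:54203875-54204124, minus strand: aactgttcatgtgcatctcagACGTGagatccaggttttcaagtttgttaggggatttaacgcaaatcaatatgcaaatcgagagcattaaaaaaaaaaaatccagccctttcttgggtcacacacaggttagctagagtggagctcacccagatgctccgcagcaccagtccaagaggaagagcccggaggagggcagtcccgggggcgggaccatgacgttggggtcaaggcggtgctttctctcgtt
Car9, chr4:43506776-43507025, plus strand: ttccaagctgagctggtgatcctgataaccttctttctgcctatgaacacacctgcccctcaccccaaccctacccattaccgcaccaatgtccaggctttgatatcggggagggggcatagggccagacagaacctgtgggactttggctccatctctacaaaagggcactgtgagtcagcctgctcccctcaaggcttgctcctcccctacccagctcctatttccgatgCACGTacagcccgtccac
Each holds 1 copy in the bases shown, near the far end in Egln3 and near the start site in Car9.

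**Figure D3:**
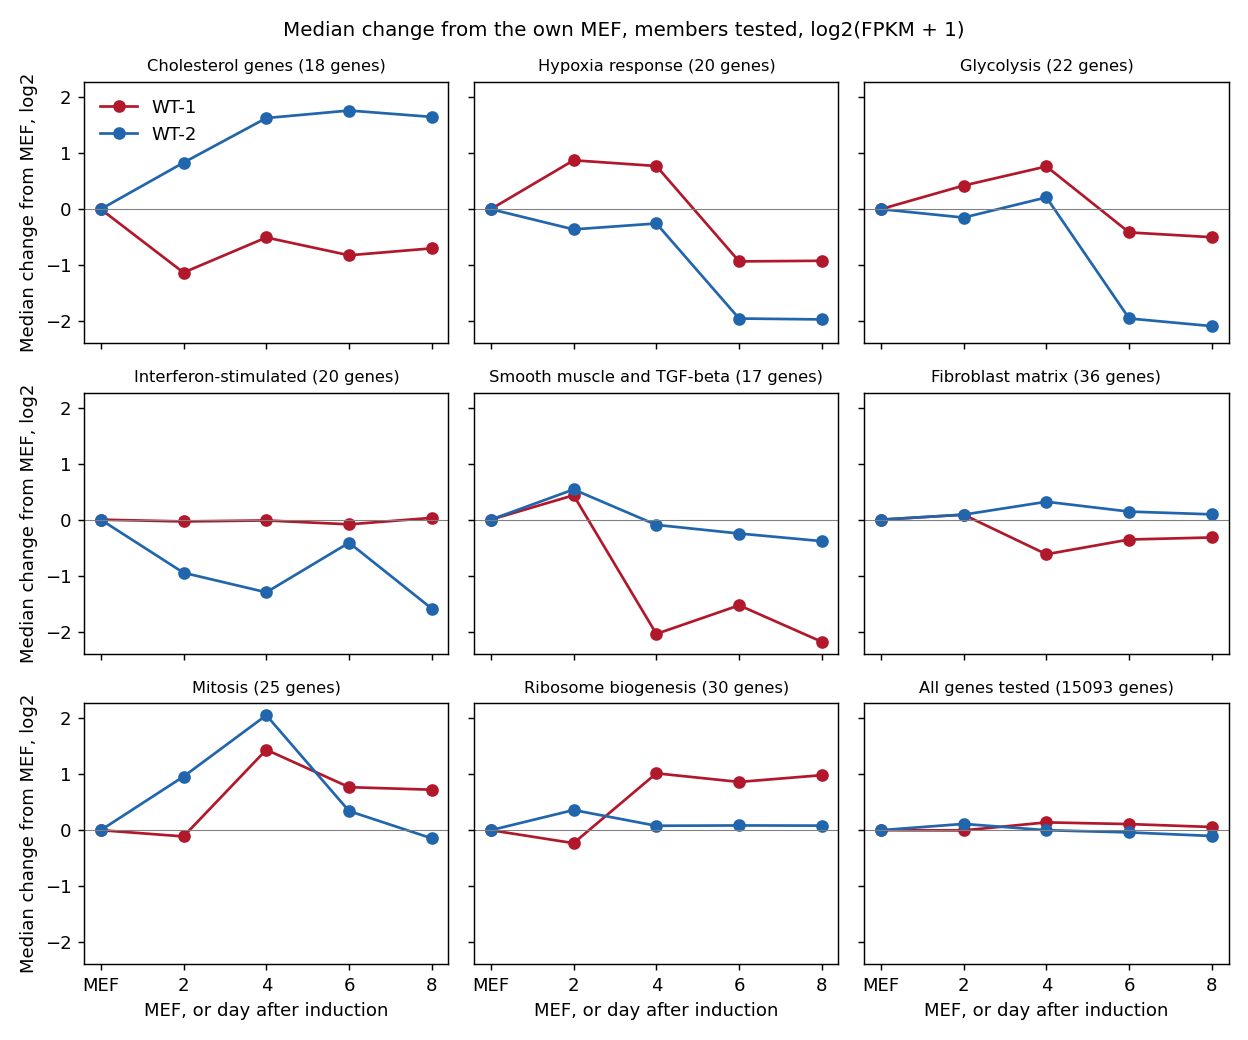
Median change from the MEF of the same system in log2(FPKM + 1) for 8 gene lists and for all genes tested, WT-1 in red and WT-2 in blue; each point is 1 library and lines join days. The sterol list lies at -0.70 in WT-1 and 1.65 in WT-2 on Day8, and the smooth muscle list departs only after Day2, to -2.04 in WT-1 on Day4 against -0.09 in WT-2.

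Contractile genes, and part of the matrix genes, had lower levels in WT-1 from Day4 on, while WT-2 kept most of theirs. Of the 17 smooth muscle and TGF-beta genes, 14 had a lower difference, with a median of -1.21 (all genes 0.11), and 4 were called lower and 1 higher without Day2 (1.28% and 2.25% of all genes). Cnn1, which encodes the actin-binding protein calponin, had 34.8, 71.7, 1.04, 1.25 and 0.248 FPKM in WT-1 and 49.8, 83.1, 40.4, 30.3 and 22.0 in WT-2. Every WT-1 library from Day4 on lay below every WT-2 library, and the difference from Day2 was -3.90 ± 0.30 (limma adjusted p = 0.0220). The tropomyosin genes Tpm1 and Tpm2 and the focal adhesion gene Tgfb1i1 were called without Day2, at -2.96 ± 0.33, -2.80 ± 0.37 and -1.97 ± 0.28. Acta2 and Tagln had larger swings, from 2753 and 1899 FPKM on Day2 to 129 and 80.7 on Day4 in WT-1, but came back to 451 and 326 on Day6 and were not called. Tgfbi, a matrix gene named for its response to TGF-beta, went against the list, from 41.7 to 450.3 FPKM in WT-1 and from 107 to 47.1 in WT-2 (4.24 ± 0.32 without Day2, limma adjusted p = 0.0163).

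Of the 36 fibroblast matrix genes, 25 had a lower difference (median -0.53), with 6 called lower and 1 higher without Day2 (1.28% and 2.25% of all genes); the share called higher is near that of all genes. Fn1, the fibronectin gene, had 1649, 1391, 272, 229 and 171 FPKM in WT-1 and 432 to 504 and then 405, 252 and 254 in WT-2. Cdh2, the mesenchymal cadherin, had 37.8, 29.0, 10.0, 5.07 and 5.70 FPKM in WT-1 and between 7.78 and 12.6 in WT-2. Postn, Fbln2, Timp2 and Col5a2 were the other 4 called lower. Not all matrix genes followed: Dcn and Lum, small proteoglycan genes, ended above their MEF in both systems, Dcn with 6.19 and 193 FPKM in WT-1 MEF and Day8 and 231 and 1238 in WT-2. Dcn was the 1 member called higher without Day2 (2.04 ± 0.35, limma adjusted p = 0.0484).

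More epithelial and pluripotency genes were detected on Day8 than in MEF in WT-1, and fewer in WT-2. Of 20 early epithelial genes, 4, 5, 6, 7 and 15 had at least 1 FPKM in WT-1 from MEF to Day8, and 3, 3, 2, 2 and 0 in WT-2. Cdh1, the epithelial cadherin, had 5.10 and 3.88 and then 40.4, 52.6 and 51.7 FPKM in WT-1 and at most 0.0906 in WT-2. Its difference from Day2 was 3.33 ± 0.32 (limma adjusted p = 0.0283). Epcam went from 0.168 to 47.6 FPKM in WT-1 and was listed at 0 in 3 WT-2 libraries, with 0.12 and 0.0813 in the others. Of the 20 epithelial genes, 10 did not pass the filter on low values. A gene could pass through WT-1 alone, as Cdh1 did, so no count over the 10 that passed is given. The p-value of Cdh1 is likewise a description.

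Of 30 pluripotency genes, 5, 5, 10, 11 and 20 had at least 1 FPKM in WT-1 and 7, 6, 6, 7 and 6 in WT-2. L1td1, an RNA-binding protein of pluripotent cells, had 0.235 and 0.0790 and then 58.8, 44.6 and 69.4 FPKM in WT-1 and at most 0.109 in WT-2 (5.69 ± 0.33 from Day2, limma adjusted p = 0.0155). Tdh, the threonine dehydrogenase of mouse pluripotent cells, reached 92.6 FPKM on Day8 in WT-1 and 0.701 in WT-2. Nanog, a core factor of the network, had 22.6 FPKM on Day8 in WT-1 and 0.834 in WT-2, against 314 in Mbd3f/- and 265 in Gatad2a-/- on that day. WT-1 on Day8 was thus above WT-2 and far below both depleted systems in Nanog. Pou5f1 and Myc, the factors with the largest gap, were both called from Day2 (4.42 ± 0.39 and 4.50 ± 0.22, limma adjusted p = 0.0252 and 0.0122). A gene could pass the filter on low values through WT-1 alone, as L1td1 and Pou5f1 did, so their p-values are a description. Of the 30 pluripotency genes, 15 were tested.

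**Figure D4:**
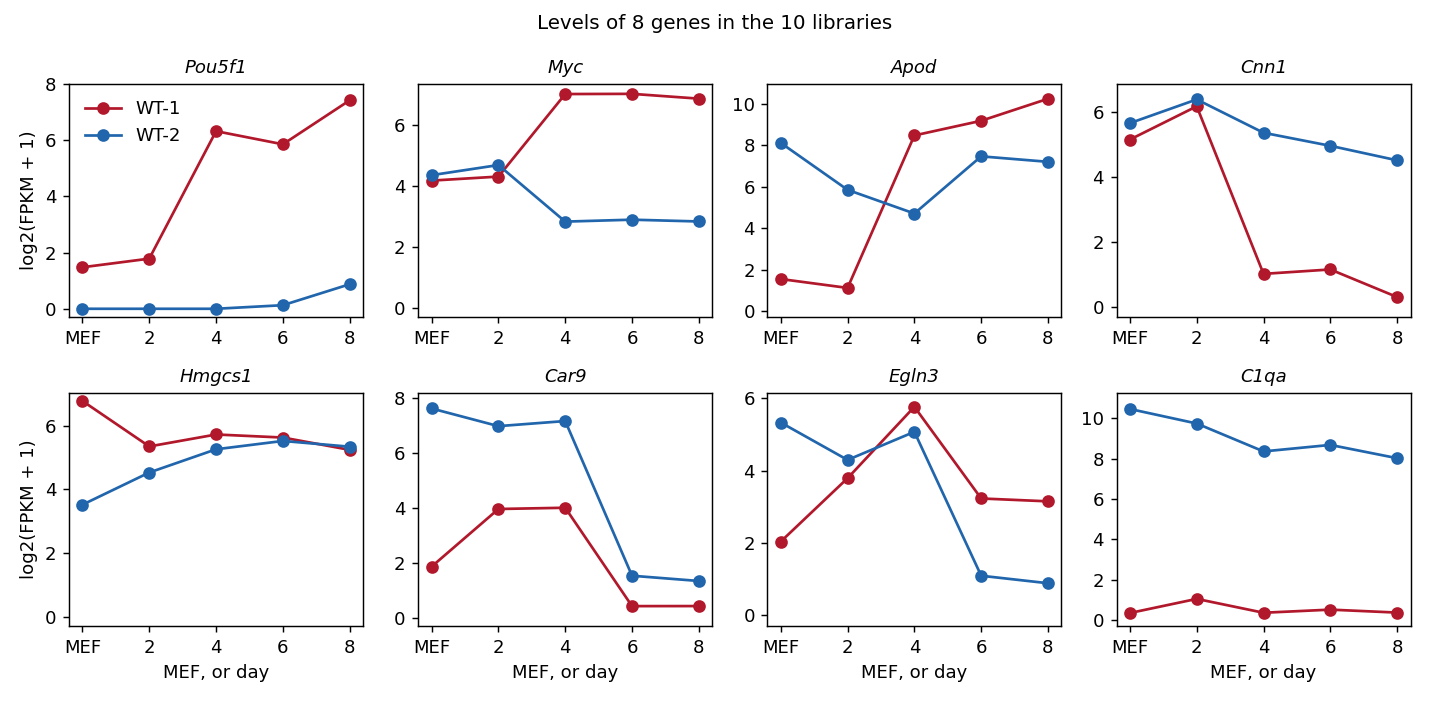
Levels of 8 genes in log2(FPKM + 1) in the 10 libraries, MEF and days 2 to 8, with 1 library per point and a separate vertical scale for each gene. Pou5f1 and Myc separate after Day2, Cnn1 drops in WT-1 from 71.7 to 1.04 FPKM between Day2 and Day4, and Hmgcs1 starts apart (109 and 10.5 FPKM in MEF) and meets.

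Growth genes differed in the interval after Day2. Of 30 ribosome biogenesis genes, 26 had a higher difference (median 0.56), but 0 of 30 had an unadjusted p under 0.05 (3.72% of all genes), and 3 were called higher without Day2 (2.25%). From Day2 the median was 1.49 (all genes 0.27), and 8 of the 30 were called higher (0.967% of all genes). Rrs1, a factor of large subunit assembly, had 15.0, 11.3, 51.7, 47.0 and 46.9 FPKM in WT-1 and 10.7, 16.3, 10.8, 12.4 and 11.4 in WT-2. Nop56, a core protein of box C/D particles, had 67.0 and 56.6 and then 176, 169 and 210.2 FPKM in WT-1, and between 26.5 and 37.2 in WT-2. Polr1b, Gar1, Nolc1, Nop10, Rcl1 and Ppan were the other 6. These levels went with those of Myc, a known driver of ribosome production, in the same libraries; that relation was not tested. The amino acid and one-carbon list went mostly the other way, with 14 of 19 genes lower (median -0.72), 7 lower and 0 higher at an unadjusted p under 0.05 (2% and 3.72% of all genes). Its median from Day2 was 0.39 (all genes 0.27). Its 2 members called from Day2, both higher, were Mthfd1 and Cth, genes of folate and cysteine metabolism (2.21 ± 0.28 and 3.90 ± 0.31, limma adjusted p = 0.0422 and 0.0223).

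Mitosis genes had their highest summed level on Day4 in both courses, and the courses were apart before and after it. In MEF the median level was 2.10 log2 units higher in WT-1, and the median difference in change was -1.11 on Day2 and 0.91 on Day8. The summed level of 25 mitosis genes was 493, 466, 1388, 928 and 1099.7 FPKM in WT-1 and 89.9, 213, 511, 137 and 81.0 in WT-2. Cdk1, which drives entry into mitosis, had 75.4, 81.6, 206, 145 and 168 FPKM in WT-1 and 24.6, 43.9, 77.2, 27.3 and 19.8 in WT-2. Over all 4 days the mitosis median was -0.07 and kept its sign in only 10 of 14 settings, so no direction is given for it. The trend from Day2 to Day8 was higher in WT-1 for 23 of 25 mitosis genes and 21 of the 23 replication genes tested at an unadjusted p under 0.05, against 13.1% of all genes, while by adjusted p limma called 0. The senescence and p53 list, with 10 genes higher and 10 lower, had a median of 0.03 that kept its sign in 9 of 14 settings, so it has no direction as a list. Of its members, Cdkn2b and Cdkn2a, the inhibitors of cyclin D kinases that accumulate in ageing fibroblast cultures, had negative differences. Cdkn2b had 26.3, 22.1, 8.33, 12.2 and 14.8 FPKM in WT-1 and 28.1, 42.8, 97.6, 117 and 96.8 in WT-2 (-2.97 ± 0.36 without Day2, limma adjusted p = 0.0290). Cdkn2a had 42.9 FPKM in MEF and 59.6 on Day8 in WT-1, and 41.5 and 207 in WT-2. The MEF of both systems were thus alike in both inhibitors, and the later libraries were not.

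Interferon-stimulated genes had high levels in WT-2 MEF and lower ones on the days of that course. All 20 members had a positive difference, 7 at an unadjusted p under 0.05 (3.72% of all genes in that direction), with a median of 1.25, and 0 were called by limma without Day2. From Day2 the median was 0.23 (all genes 0.27). Mx1, an antiviral GTPase gene, had 44.6, 5.58, 4.87, 7.36 and 1.64 FPKM in WT-2 and at most 0.308 in WT-1, and Rsad2 had 65.7 and then 2.78 to 10.4 against at most 0.101. The list's sum was 3631, 1712, 1242, 2697 and 1175 FPKM in WT-2 and 117 to 297 in WT-1. Of 21 secreted inflammatory genes, 13 had a higher difference and 8 a lower one, near the share of all genes (8768 of 15093 higher). Their median of 0.30 kept its sign in 12 of 14 settings, with -0.25 at pseudocount 5 and -0.12 from Day2. Their sum in WT-2 was 2912 FPKM in MEF and 24585.5 on Day8, of which Saa3, an acute-phase gene, held 458 and 15795. Cxcl12, a stromal chemokine gene, had 968, 1413, 170, 323 and 232 FPKM in WT-1 and 882, 1489, 1264, 2616 and 3379 in WT-2 (-3.39 ± 0.47 without Day2, limma adjusted p = 0.0361). Mmp3, a matrix protease gene, had 0.149 and 147 FPKM in WT-1 MEF and Day8 and 75.3 and 1049 in WT-2. The macrophage sum of WT-2 was 8796, 6854, 5422, 9951 and 5889.6 FPKM over the same libraries, and its part in these immune differences was not tested. Laptm5, a lysosomal gene of blood cells, was the marker that also went up in WT-1, from 0.338 and 0.321 to 29.4, 32.2 and 39.7 FPKM, while Tyrobp stayed at or below 0.585 there.

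The lists that remain are given by their counts. All 10 LIF and STAT3 readouts had a positive difference, with a median of 0.71. Measured from Day2, the median was 0.27 (all genes 0.27), and the median gap between the MEF, WT-1 minus WT-2, was -1.84. At an unadjusted p under 0.05 there were 3 (3.72% of all genes in that direction), and 1 was called without Day2 (2.25%). That 1 was Socs3, a feedback inhibitor of LIF signalling, which had 3.09, 8.81, 30.7, 41.0 and 38.4 FPKM in WT-1 and 66.6 to 110.0 in WT-2 (3.17 ± 0.29 without Day2, limma adjusted p = 0.0194). Of 14 MEK readouts tested, 11 had a positive difference (median 0.80), with 0 at an unadjusted p under 0.05 and 0 called without Day2. The NuRD list, which holds the complex that the study depletes in its other lines, had a median of -0.04 with 0 of 13 called, and Mbd3 and Gatad2a had differences of -0.16 ± 0.33 and -0.04 ± 0.34. Clustered Hox genes had a median of -0.07, yet 25 of 28 had at least 1 FPKM in WT-2 MEF and 10 in WT-1 MEF (27 and 9 on Day8). Of the 9 adipocyte markers, 8 had a positive difference (8768 of 15093 over all genes), with a median of 1.01. At an unadjusted p under 0.05 there were 2 (3.72% of all genes in that direction), and 2 were called higher without Day2 (2.25%). A gene could pass the filter on low values through WT-2 alone. Those called were Cfd and Adipoq, which also differed in the MEF: Cfd and Adipoq had 14.4 and 12.1 FPKM in WT-2 MEF and at most 0.0543 in WT-1, and by Day8 had 0.206 and 0.273 in WT-2.

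The trend from Day2 to Day8, which uses no MEF library, had 0 genes at an adjusted p under 0.05 in limma (0%; smallest 0.0727) and 2717 at an unadjusted p under 0.05 (18%), 1974 higher (13.1%) and 743 lower (4.92%) in WT-1. Thbs4, a thrombospondin gene of tendon and muscle, was higher through WT-2, with 131, 88.3, 4.85 and 1.35 FPKM from Day2 to Day8 against at most 0.0329 in WT-1. Wfdc2, an epithelial secreted protein gene, went from 0.235 on Day2 to 51.1 FPKM on Day8 in WT-1 and had at most 0.296 in WT-2 from Day2 on. Trh, the thyrotropin-releasing hormone gene, had 0.181, 0.916, 4.36 and 194 FPKM in WT-1, and 341 in WT-2 IPS. Gsta4 and Aldoc were the other 2 on the higher side. Twist2, a mesenchymal transcription factor, had 2.79 to 0.716 FPKM in WT-1 and 9.93, 8.91, 49.6 and 137 in WT-2. Gjb2, a gap junction gene, had 32.2 and then 0.293, 0.129 and 0.0811 FPKM in WT-1 and 1.56 to 4.29 in WT-2. Ccl11 reached 32.9 FPKM in WT-2 on Day8, and Plac8 and the small RNA Rny3 completed the lower side.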

How the data were processed

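The authors deposited 1 table of FPKM values for each system. Tools named in the submitters' processing notes are TopHat2 2.0.10, Cufflinks 2.2.1 and CASAVA 1.8.2, with mm10 as the build. Annotation release, strand use and depth were not stated, and the kit named in the labels does not mark strand, so overlapping genes are uncertain. All 37 mitochondrial genes are listed at 0 in every library, so a listed 0 can be a failed estimate. Of 38983 shared genes, 19 identifiers with several entries were left out, and 27 symbols that had become dates were identified by their Ensembl identifiers. Value columns that match no sample numbered 0. Coordinates are from GENCODE M21 (GRCm38); of 38964 joined genes, 37408 were found there.

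Genes with FPKM of at least 1 in at least 2 of 10 libraries were kept and tested on log2(FPKM + 1), which understates changes of low genes, with limma 3.58.1 in R 4.3.3 (eBayes with trend and robust). The model had stage as a block, system, and system by induced state, the term tested, with 3 residual degrees of freedom. Days are the paired units, since libraries share a stage by label. The trend fit used Day2 to Day8 (2 residual degrees of freedom), as did the fits without Day2 and from Day2. P-values were adjusted by Benjamini-Hochberg over all genes kept with a threshold of 0.05. The fits were tested on simulated data. Named genes are the 12 largest differences each way with FPKM of at least 5 in some library and the same sign on all 4 days (5 each way for the trend), filled by unadjusted p under 0.05 where none passed, with predicted genes and clones left out, plus the factors, Mbd3, Gatad2a and up to 4 members of each list with the largest differences. Further list members are named for their role or because a fit called them, chosen after their values were seen. Comparison, members and lists were chosen with earlier results of these data known, and calls without Day2 are 1 of 4 leave-one-out fits. Alternatives were pseudocounts, filters, scalings, all 4 systems, no stage block, Day2 as start and each day left out. A few genes that these rules name are not reported here.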

Additional observations from a re-analysis of the deposited data

Results flagged for a closer look

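For 12 of the named genes, all 4 days lay on opposite sides of the MEF in WT-1 and WT-2. The direction of these days is not independent evidence, since each day is set against the same MEF and the same sign on all days was part of how the genes were named, and the difference of each was not past the adjusted threshold of limma. Higher in WT-1 were Crym (difference in change 5.13), Fgl2 (4.74), Egln3 (4.44), Col15a1 (4.22) and Scara5 (4.06). Lower in WT-1 were Slc20a1 (-3.29), Fdps (-3.19), Sdpr (-3.19), Cyp51 (-3.10), Sc4mol (-3.04), Insig1 (-2.94) and Hmgcs1 (-2.93). Of these 7 lower genes, 5 belong to sterol synthesis or its control.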

How the results depend on the processing

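The count of genes past the threshold, 0 with all 4 days, stayed at 0 with pseudocount 0.1 or 5, a filter at 5 FPKM, quantile normalization, median centring and eBayes without trend and robust, and also with no replicate block (stage left out, 0 called). It was 1 with all 4 systems, 89 with no filter on low values and 203 with Day2 as the starting point. A fit on the 4 daily differences, which counts no error of the MEF libraries, gave 3897 and is not relied on, since both MEF libraries enter every day. Leaving out 1 day each gave 0 to 532 calls, with 532 for Day2. Chosen after the data were seen, the fit without Day2 gave 311 calls with quantile normalization, 503 with median centring, 353 with all 4 systems and 573 with pseudocount 5. Of the 532, these held 299, 416, 228 and 439, and all 532 kept their sign in each. The trend count of 0 became 0 to 487 when 1 day was left out (50 without Day2, 487 without Day4, 113 without Day6), so it depends on which days enter; the cause was not tested. Of 965 values for named genes and list medians under alternatives, 846 kept direction and side of the threshold, 66 newly passed it and 53 moved in size or sign. With 1 library for each stage and system, 2 or 3 residual degrees of freedom and unknown depth, small differences were not detectable.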
